A study of Mus musculus with 12 samples.

Results

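Whole lungs labelled as C3 knockout (C3 KO) were compared with whole lungs labelled as wild type (WT) in mice that carry the MMTV-PyMT transgene. The comparison used 8 of the 12 libraries of the series, 4 per group, chosen by their genotype labels, and covered all genes. MMTV-PyMT mice express the polyoma middle T oncogene from the promoter of the mouse mammary tumour virus and develop mammary tumours that seed the lung. Per the series' design text, the WT group carried MMTV-Cre and MMTV-PyMT and the C3 KO group carried MMTV-Cre, MMTV-PyMT and an allele written C3Tdt, and lungs were taken at 4.5 months. The sample labels give the strain of the WT group as MMTV-PyMT alone. The remaining 4 libraries were S1pr1 KO lungs (MMTV-Cre, S1pr1fl/fl and MMTV-PyMT), used here to estimate the spread and as a second reference. Cre was under the same promoter, whose activity is highest in mammary epithelium, and whether a deletion reached the lung's own cells was not tested. The labels do not state whether each library is its own animal, and every p-value therefore measures only the spread between these samples, which may be technical.

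C3 is the protein on which the classical, lectin and alternative pathways of complement converge. Its cleavage releases C3a, a peptide sensed by the receptor C3ar1, and leaves C3b, which tags surfaces and feeds the alternative pathway through factor B (Cfb). The liver is its main source, but lung epithelium and macrophages also make C3.

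Total read counts lay between 34131299 and 42821425 in the 8 libraries, and Pearson correlation of log2 CPM (CPM is the read count scaled to a common library size) between 0.970 and 0.987. All pairs of libraries within a group differed beyond sampling noise (chi-square per degree of freedom 15.9 or more). The library labelled C3 KO 4 stood apart, with the lowest voom quality weight of the 12 libraries (0.474) and a mean correlation of 0.976 with the other C3 KO libraries and 0.978 with WT. Xist, the RNA of the inactive X chromosome, was at 499 to 655 CPM in WT and at 698 to 753 CPM in C3 KO.

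C3 itself separated the C3 KO libraries from each other. C3 (ENSMUSG00000024164, GRCm39 chromosome 17, 57510970 to 57535136) was at 1025, 787, 903 and 799 CPM in WT 1 to 4. C3 KO 1, 2 and 3 had 475, 465 and 601 CPM, and the library labelled C3 KO 4 had 1416 CPM. Hence 3 C3 KO libraries lay below every WT library and the other one above every WT library. The group means were 878 ± 111 CPM in WT and 739 ± 455 CPM in C3 KO (SD, n = 4 each). The fitted log2 fold change was -0.25 (SE 0.29, edgeR adjusted p = 0.81), and a two-sided exact permutation test of log2 CPM gave p = 0.343, where 4 against 4 libraries allow 0.0286 at the lowest. Without the library labelled C3 KO 4 the fitted value was -0.77 (edgeR adjusted p = 0.040), but leaving a library out because of its C3 level makes that value circular. In the S1pr1 KO libraries C3 was at 772, 940, 851 and 713 CPM, which overlapped WT.

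**Figure D1:**
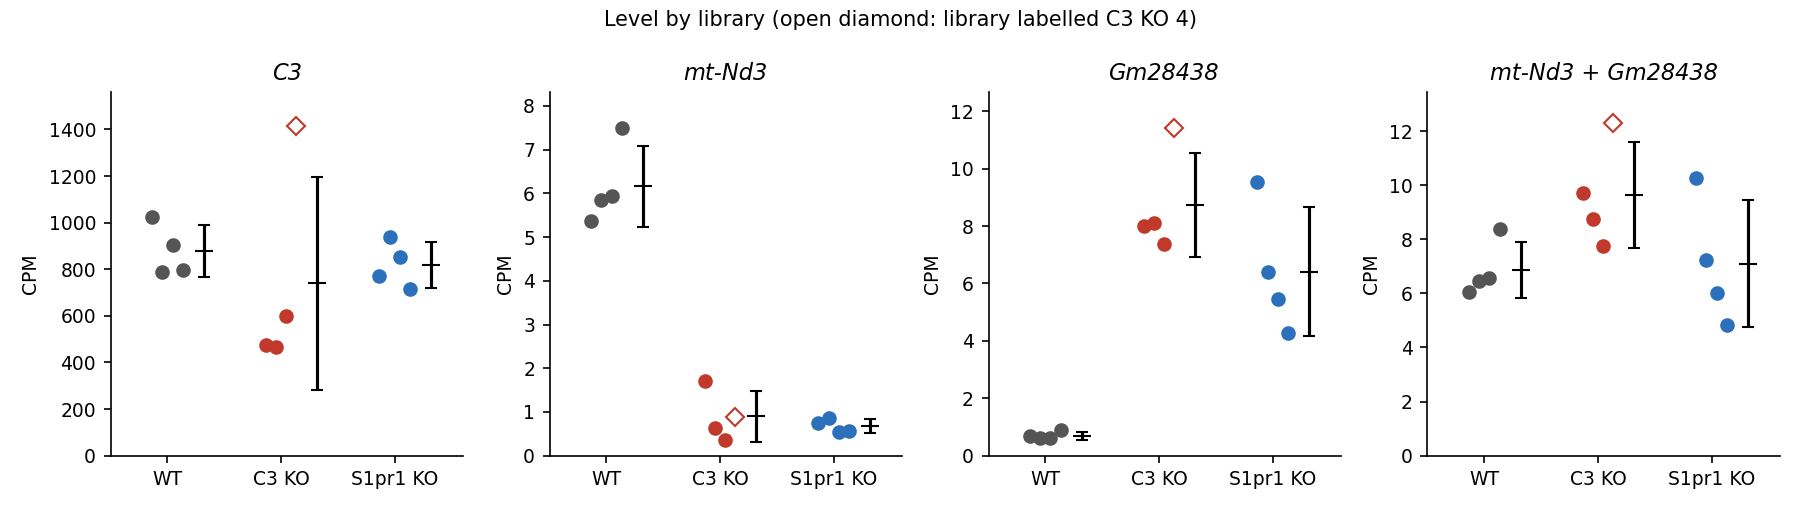
Levels in CPM (y axes, linear from 0) of C3, of mt-Nd3, of Gm28438 and of mt-Nd3 and Gm28438 summed, in each WT, C3 KO and S1pr1 KO library (points), with mean and SD beside them. The library labelled C3 KO 4 (open diamond) is the highest for C3 at 1416 CPM, while for mt-Nd3 it lies with the other C3 KO libraries, below all WT libraries.

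Among the protein coding genes of at least 10 CPM whose log2 CPM followed C3 most closely over the 8 libraries were Traf2 (Pearson r 0.960), an adaptor of TNF receptors, Naprt (0.955), an enzyme of NAD synthesis, Nkx2-1 (0.941), the transcription factor of lung epithelium, and Ctsd (0.921), a lysosomal protease. They were chosen for this likeness, so no test was made. Nkx2-1 was at 290 to 325 CPM in WT, 266 to 280 CPM in C3 KO 1 to 3, and 339 CPM for the one labelled C3 KO 4. Without that library r was 0.927, 0.927, 0.901 and 0.867 in the same order.

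Of 20229 genes tested, 2 passed at an edgeR adjusted p under 0.05 (0.00989%). Without regard to adjustment, 5.88% of genes were higher and 5.14% lower in C3 KO with a p under 0.05. Of all genes, 3.00% were higher in every C3 KO library than in any WT library, and 3.09% were lower. These shares are the background for the counts that follow. The median log2 fold change over all genes was -0.0013.

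Like C3, the other genes of the complement system did not pass with all libraries, and their levels in C3 KO and WT overlapped for most. In the alternative pathway list of 6 genes, 5 were higher and 1 lower (median 0.08, and -0.15 without the library labelled C3 KO 4), and 0 passed in edgeR or DESeq2, with 0 at an unadjusted p under 0.05 in either direction. Cfb, which C3b binds to form the C3 convertase, was at 2.29, 1.51, 1.99 and 2.39 CPM in WT. In C3 KO 1 to 4 its level was 2.20, 1.23, 1.69 and 4.86 CPM, so its value of 0.30 (SE 0.36, edgeR adjusted p = 0.813) rested on the library labelled C3 KO 4 and was -0.26 without it. Cfi, the protease that inactivates C3b, was at 0.658 to 0.960 CPM in WT and at 0.972 to 1.13 CPM in C3 KO, without overlap, and did not pass (0.35, SE 0.27, edgeR adjusted p = 0.679).

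In the classical and lectin pathway list, 2 of 13 genes were higher and 11 lower (median -0.05, and -0.33 without the library labelled C3 KO 4). Again 0 passed in edgeR or DESeq2, with 1 higher and 1 lower at an unadjusted p under 0.05. C4b, whose fragment forms part of the classical C3 convertase, was at 480, 342, 385 and 368 CPM in WT and at 342, 258 and 343 CPM in C3 KO 1 to 3. In the library labelled C3 KO 4 it was at 597 CPM, above every WT library, as C3 was. Mbl1, a mannose-binding lectin, was at 2.03 to 2.76 CPM in WT and 3.01 to 3.92 CPM in C3 KO (0.47, SE 0.15, edgeR adjusted p = 0.337). The lectin protease gene Masp1 was at 5.66 to 12.6 CPM in WT and 5.19 to 6.59 CPM in C3 KO (-0.55, SE 0.21, edgeR adjusted p = 0.379).

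Of 10 complement receptors 8 were higher (median 0.09, and -0.14 without C3 KO 3), with 0 passing in edgeR or DESeq2 and 0 at an unadjusted p under 0.05. C3ar1, the receptor of C3a, was at 4.84, 3.84, 3.05 and 5.51 CPM in WT and at 3.90, 4.60, 6.08 and 6.76 CPM in C3 KO (0.31, SE 0.21, edgeR adjusted p = 0.634). C5ar1, the receptor of C5a on neutrophils and macrophages, was at 18.0 ± 3.97 CPM in WT and 18.9 ± 6.73 CPM in C3 KO (SD, n = 4 each). Of 12 regulators and terminal components 8 were higher (median 0.04), and 0 passed in edgeR or DESeq2. C7, a part of the membrane attack complex, was at 283 to 297 CPM in WT and 245 to 281 CPM in C3 KO (-0.16, SE 0.06, edgeR adjusted p = 0.368). S1pr1 was at 359 ± 89.3 CPM in WT and 300.5 ± 41.4 CPM in C3 KO (-0.26, SE 0.29, edgeR adjusted p = 0.80). In the S1pr1 KO libraries replicates 1, 3 and 4 had 132, 142 and 154 CPM, while the library labelled S1pr1 KO 2 had 366 CPM, within the WT range and against its label. Of the 25 genes of sphingosine-1-phosphate receptors and metabolism 12 were higher and 13 lower (median -0.010), and 0 passed in edgeR or DESeq2, with 1 lower at an unadjusted p under 0.05.

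Those 2 genes passing in edgeR are a gene of the mitochondrial genome and its nuclear copy. mt-Nd3 (ENSMUSG00000064360, chromosome MT, 9459 to 9806) encodes a subunit of respiratory complex I. Gm28438 (ENSMUSG00000101939, chromosome 1, 24651856 to 24652200) is annotated as an unprocessed pseudogene. The first 60 bases of both transcripts in GENCODE M21 (build GRCm38, matched by Ensembl gene identifier) show how alike they are, with the base that differs in capitals.
mt-Nd3: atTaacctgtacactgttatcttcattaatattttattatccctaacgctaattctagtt
Gm28438: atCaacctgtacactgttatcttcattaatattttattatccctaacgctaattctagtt
Over the 345 bases of Gm28438 the only difference from mt-Nd3 was T3C, counted from 1 at the 5′ end, so reads from either transcript are nearly interchangeable and both levels are uncertain.

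mt-Nd3 was at 5.36, 5.84, 5.94 and 7.49 CPM in WT and at 1.71, 0.644, 0.361 and 0.896 CPM in C3 KO. Every C3 KO library, the one labelled C3 KO 4 included, lay below every WT library. The gene fell by 2.77 on the log2 scale (SE 0.29, edgeR adjusted p = 0.0050). Gm28438 was at 0.679, 0.603, 0.615 and 0.905 CPM in WT and at 8.01, 8.11, 7.39 and 11.4 CPM in C3 KO, again with no overlap. It rose by 3.64 on the log2 scale (SE 0.30, edgeR adjusted p = 0.00054). Of the reads given to either gene, mt-Nd3 took 88.8% to 90.6% in WT and 4.66% to 17.6% in C3 KO.

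The summed level of both was 6.86 ± 1.05 CPM in WT and 9.63 ± 1.96 CPM in C3 KO (SD, n = 4 each), a smaller difference than that of either gene. The mean log2 difference of the sum was 0.48 (two-sided exact permutation test, p = 0.0571), with 6.04, 6.45, 6.56 and 8.39 CPM in WT and 9.72, 8.75, 7.75 and 12.3 CPM in C3 KO. In the S1pr1 KO libraries mt-Nd3 was at 0.531 to 0.870 CPM and Gm28438 at 4.27 to 9.52 CPM, levels that overlapped C3 KO and not WT. The 5 mitochondrial genes adjoining mt-Nd3 (mt-Co2, mt-Atp8, mt-Atp6, mt-Co3 and mt-Nd4l) were also listed at low means, 0.437 to 18.6 CPM over the 8 libraries, while the other 7 mitochondrial protein genes were at 425 to 5610.4 CPM. None of those 12 passed, and neither did the 6 pseudogenes beside Gm28438 between 24650616 and 24655278, whose means were 3.30 to 17.7 CPM. When only the 8 libraries were fitted, Gm28438 passed and mt-Nd3 did not (-2.76, edgeR adjusted p = 0.071).

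Among named protein coding genes of at least 1 CPM, 423 were higher in every C3 KO library than in any WT library and 498 were lower. Over all 20229 genes tested the like counts were 606 (3.00%) and 626 (3.09%), and the share within the narrower set is not reported here. Of the 423 and the 498 genes, the 15 of lowest p in each direction had edgeR adjusted p of 0.076 to 0.237, mt-Nd3 aside, so none of the others passed. DESeq2 gave all of them an adjusted p under 0.05 (0.0118 at most). The genes had been chosen from the same counts for low p and no overlap, so this is not independent evidence for them. DESeq2 called 177 genes (0.878% of those with an adjusted p), 110 up and 67 down, and limma voom with quality weights called 21 (0.104%), 4 up and 17 down. Both DESeq2 and voom called 8 genes, namely Gm28438, mt-Nd3, Herc2, Soga1, Gramd1a, Gm7334, Gm44321 and Gm50022.

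Among the 15 higher genes were Herc2, Robo1, Hipk2 and Eln. Herc2, a ubiquitin ligase of the DNA damage response (ENSMUSG00000030451, chromosome 7, 55699944 to 55881548), was at 139, 137, 150.1 and 146 CPM in WT and at 188, 182, 184 and 209 CPM in C3 KO (0.42, SE 0.06, edgeR adjusted p = 0.076, DESeq2 adjusted p = 1.37e-05). Robo1, a receptor for Slit guidance proteins (chromosome 16), was at 21.1, 21.9, 17.0 and 20.2 CPM in WT and at 32.2, 27.2, 30.2 and 31.0 CPM in C3 KO (0.59, SE 0.09, edgeR adjusted p = 0.091). Hipk2, a nuclear kinase that acts on p53 (chromosome 6), was at 63.1, 71.3, 55.7 and 56.3 CPM in WT and at 94.5, 83.5, 105 and 107 CPM in C3 KO (0.66, SE 0.11, edgeR adjusted p = 0.128). These 3 genes were chosen for having all C3 KO libraries above all WT libraries, so that separation is not a finding. The library labelled C3 KO 4 lay with or above the other C3 KO libraries for Herc2 and Hipk2. In the S1pr1 KO libraries Herc2 was at 151 to 175 CPM, Robo1 at 25.9 to 31.2 CPM and Hipk2 at 69.4 to 94.9 CPM. Robo1 differed from WT there by 0.52 (SE 0.09, edgeR adjusted p = 0.024), a comparison that uses the same WT libraries.

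Eln, which encodes elastin, the elastic fibre protein of lung and vessels (chromosome 5, 134731447 to 134776177), was at 152, 131, 164 and 174 CPM in WT and at 219, 247, 243 and 210 CPM in C3 KO (0.57, SE 0.10, edgeR adjusted p = 0.205). In the S1pr1 KO libraries it was at 122, 156, 160.5 and 134 CPM, within or below the WT range and below every C3 KO library. The difference between the knockouts was itself tested: Eln was lower in S1pr1 KO than in C3 KO by a log2 value of -0.68 (SE 0.10, edgeR adjusted p = 0.043, n = 4 each). That test called 16 genes in all (0.0791%), and it shares the C3 KO libraries with the comparison against WT. Eln and Rbm3 were the 2 genes it called among those chosen by the naming rules. Lox, the enzyme that crosslinks elastin, was at 37.0 to 54.8 CPM in WT and at 46.9 to 91.1 CPM in C3 KO, with overlap (0.48, SE 0.21, edgeR adjusted p = 0.426).

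**Figure D2:**
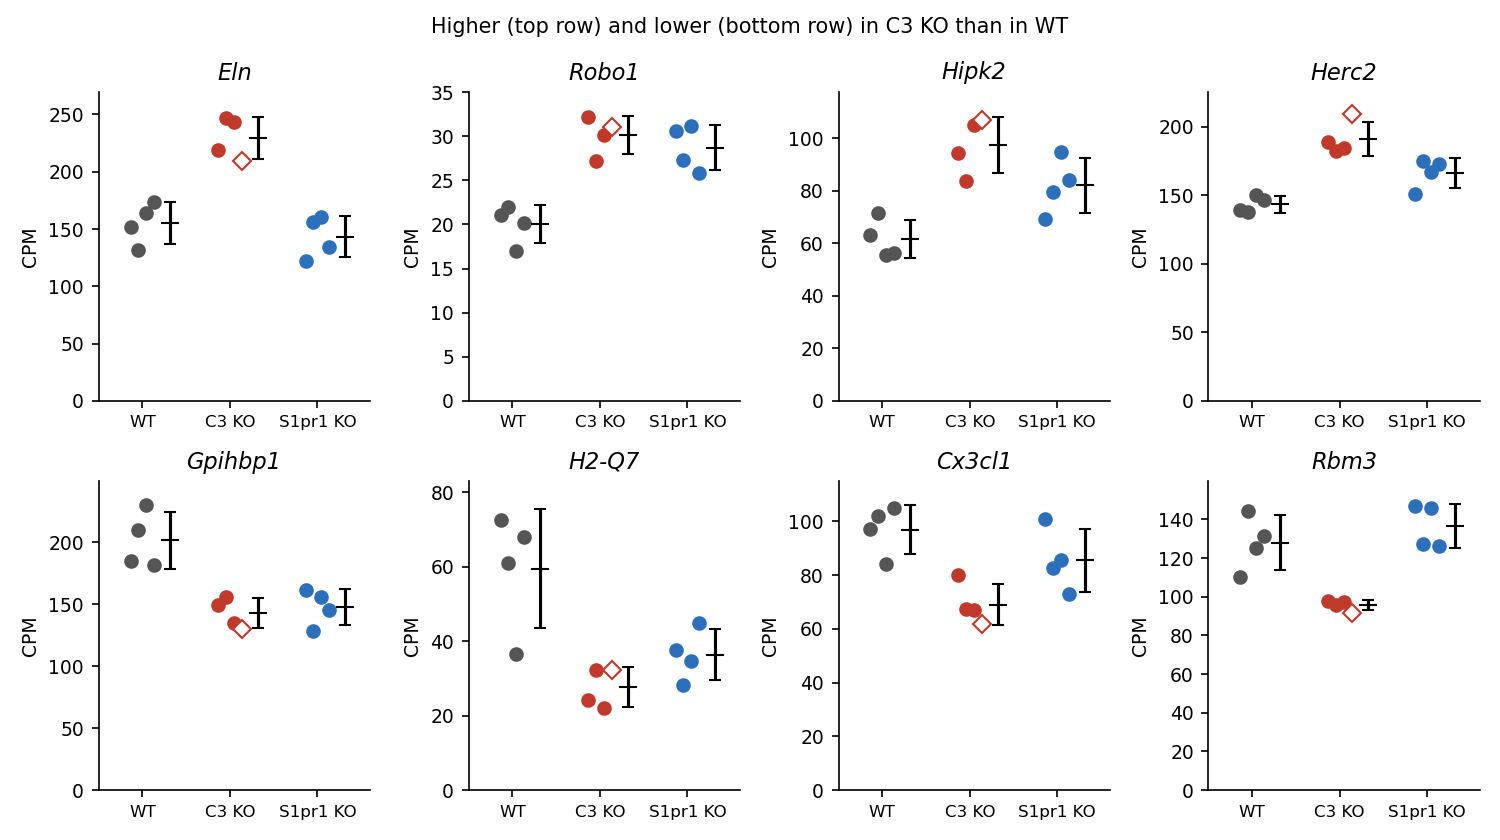
Levels in CPM (y axes, linear from 0) of 8 genes in each WT, C3 KO and S1pr1 KO library (points; open diamond, library labelled C3 KO 4), with mean and SD beside them. The C3 KO libraries lie above all WT libraries for Eln, Robo1, Hipk2 and Herc2 and below them for Gpihbp1, H2-Q7, Cx3cl1 and Rbm3. All 8 genes were chosen for this lack of overlap.

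The other 11 genes of this group were Soga1, Vps13d, a lipid transfer protein, Chid1, Nr2c2, an orphan nuclear receptor, Akap13, an anchor of protein kinase A, Phc3, a Polycomb subunit, Riox2, Crybg3, Utrn, which encodes utrophin, Wdr95 and Castor2. Their log2 fold changes lay between 0.30 for Utrn and 1.26 for Wdr95, and their edgeR adjusted p at 0.207 or above. Akap13 was at 361 to 399 CPM in WT and at 430.2 to 501 CPM in C3 KO, and Utrn at 327 to 386 CPM in WT and at 414 to 444 CPM in C3 KO. The 15 genes had long transcripts, with a median listed length of 12711 bases against 3544 for all genes tested.

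Length moved with the comparison over all genes. Among 12054 protein coding genes of at least 5 CPM, the median log2 fold change was -0.057, -0.046, -0.019, 0.0054 and 0.063 in the 5 classes of listed length from shortest to longest. In the longest class (7891 bases or more) 227 of 2410 genes were higher without overlap and 23 lower, and in the shortest (2647 bases or less) 14 of 2411 were higher and 164 lower. All 4 C3 KO libraries, the one labelled C3 KO 4 included, showed it: their medians against the WT mean were 0.046 to 0.080 in the longest class and -0.093 to -0.038 in the shortest. Among WT libraries the longest class ran from -0.042 to 0.026 and the shortest from -0.029 to 0.042. The trend was not particular to C3 KO. S1pr1 KO 2, 3 and 4 had medians of 0.049, 0.040 and 0.036 in the longest class and -0.042, -0.049 and -0.045 in the shortest. S1pr1 KO 1 did not show it, with -0.0044 in the longest class and 0.018 in the shortest. The genes DESeq2 called as higher had a median length of 8568 bases and those it called as lower 2710 bases. With a length trend removed from each library, 2 genes still passed in edgeR. Herc2 was then at 0.30, Akap13 at 0.15 and Robo1 at 0.47, while Hipk2 (0.62), Eln (0.53), Gpihbp1 (-0.47) and H2-Q7 (-1.09) kept nearly their size. No measure of RNA integrity stands in the labels, and its part in this was not tested.

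**Figure D3:**
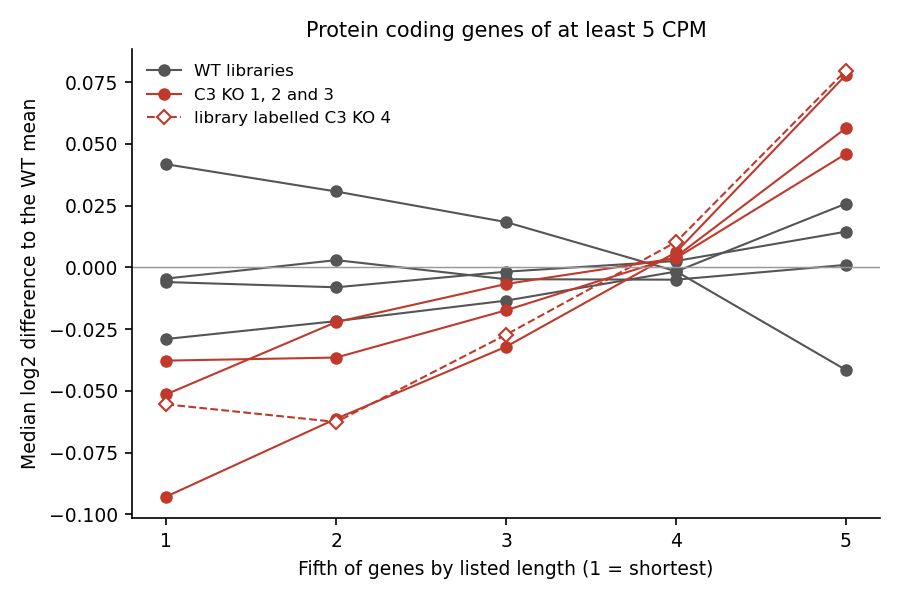
Median log2 difference to the WT mean (y axis) of protein coding genes of at least 5 CPM in 5 classes of listed gene length (x axis, shortest to longest), 1 line per WT or C3 KO library. The 4 C3 KO lines (the library labelled C3 KO 4 dashed) end at 0.046 to 0.080 in the longest class, above all WT lines, and start at -0.093 to -0.038 in the shortest.

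Among the 15 lower genes were Gpihbp1, Cx3cl1, Rbm3 and H2-Q7. Gpihbp1, which carries lipoprotein lipase to the lumen of capillaries (chromosome 15, 75468477 to 75471330), was at 185, 210.0, 230.1 and 182 CPM in WT and at 149, 156, 135 and 130.4 CPM in C3 KO (-0.50, SE 0.09, edgeR adjusted p = 0.207). Cx3cl1, the membrane chemokine fractalkine of endothelium and epithelium, was at 97.2, 102, 84.0 and 105 CPM in WT and at 80.0, 67.4, 67.2 and 61.8 CPM in C3 KO (-0.49, SE 0.11, edgeR adjusted p = 0.237). Lama4, a laminin of vascular basement membranes, was at 150 to 167 CPM in WT and 128 to 140 CPM in C3 KO. Gpihbp1, Cx3cl1 and Lama4 were likewise chosen for having no overlap between C3 KO and WT, and none of them passed. In S1pr1 KO, against the same WT libraries, Gpihbp1 was at 128 to 161 CPM (-0.45, SE 0.09, edgeR adjusted p = 0.038) and Cx3cl1 at 72.9 to 101 CPM (-0.18, SE 0.11, edgeR adjusted p = 0.394). A difference in cell number and a difference in RNA per cell cannot be told apart in whole lung, here or for any cell type below.

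The endothelial list as a whole had 6 genes higher and 13 lower of 19 (median -0.11), with 0 passing in edgeR, 1 in DESeq2 and 3 lower at an unadjusted p under 0.05. The summed level of the list was 8996 to 9678 CPM in WT and 7333 to 10102 CPM in C3 KO, with overlap and with the lowest value in the library labelled C3 KO 4.

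Rbm3, an RNA-binding protein induced by cold, was at 110.4, 144, 125 and 132 CPM in WT and at 98.0, 95.6, 97.5 and 91.8 CPM in C3 KO (-0.42, SE 0.08, edgeR adjusted p = 0.207). In the S1pr1 KO libraries it was at 126 to 147 CPM, above every C3 KO library, and the difference between S1pr1 KO and C3 KO passed (0.51, SE 0.08, edgeR adjusted p = 0.043). Eef1g, a subunit of translation elongation factor 1, was at 258 to 268 CPM in WT and 212 to 233 CPM in C3 KO, and Clk1, a kinase of splicing factors, at 224 to 255 CPM in WT and 184 to 212 CPM in C3 KO. Gramd1a, a sterol transporter of the endoplasmic reticulum, was at 109.9, 115, 109.5 and 111 CPM in WT and at 88.5, 91.7, 96.0 and 82.8 CPM in C3 KO (-0.31, SE 0.05, edgeR adjusted p = 0.129). In S1pr1 KO it was at 77.2 to 83.4 CPM (-0.46 against the same WT libraries, SE 0.05, edgeR adjusted p = 0.0065). The remaining genes of this group, Ppm1m, Trim47, Paqr6, Spata2, Trnau1ap and Casq1, had log2 fold changes from -1.62 for Casq1, the calcium store protein of skeletal muscle, to -0.28 for Ppm1m, a phosphatase.

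MHC class I genes, which display peptides to T cells, were lower in 18 of 20 tested members (median -0.20, and -0.11 without the library labelled C3 KO 4). Of these 7 were lower at an unadjusted p under 0.05 and 2 without overlap, and 0 passed in edgeR and 3 in DESeq2. H2-Q7, a non-classical member (chromosome 17, 35658131 to 35662749), was at 72.7, 61.0, 36.5 and 67.8 CPM in WT and at 24.3, 32.3, 22.2 and 32.2 CPM in C3 KO (-1.10, SE 0.21, edgeR adjusted p = 0.207), and at 28.2 to 44.9 CPM in S1pr1 KO. H2-T24 was at 88.3, 70.5, 71.9 and 72.1 CPM in WT and at 33.2, 52.0, 45.5 and 53.9 CPM in C3 KO (-0.71, SE 0.16, edgeR adjusted p = 0.237). H2-D1, a classical heavy chain, was at 1561 to 2021 CPM in WT and 1381 to 1624 CPM in C3 KO, overlapping, and H2-Q6 at 18.2 to 40.4 and 10.8 to 20.3 CPM. The members of this family are near copies of each other and sit together on chromosome 17, so reads may be split between them. Class II genes were lower in 9 of 11 members (median -0.11), with 0 passing in edgeR or DESeq2 and 0 at an unadjusted p under 0.05. H2-Ab1, a class II beta chain, was at 364 to 557 CPM in WT and 306 to 438 CPM in C3 KO.

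Among epithelial lists, genes of ciliated cells had 30 of 32 members higher (median 0.20, and 0.06 without the library labelled C3 KO 4), with 0 passing in edgeR or DESeq2 and 6 higher at an unadjusted p under 0.05. Rsph4a, a radial spoke protein of motile cilia, was at 15.5 to 18.0 CPM in WT and at 21.9, 18.4, 20.2 and 29.3 CPM in C3 KO, and Dnah11, a ciliary dynein, at 17.1 to 21.2 CPM in WT and 20.7 to 33.1 CPM in C3 KO. Alveolar type 1 genes were higher in 8 of 13 members and lower in 5 (median 0.08), and 3 of the higher ones, named here for that, were without overlap. These included Akap5, at 294 to 377 CPM in WT and 399 to 443 CPM in C3 KO, and the chloride channel gene Clic5, at 1020 to 1142 CPM in WT and 1220 to 1317 CPM in C3 KO. The third was Rtkn2, at 224 to 262 CPM in WT and 273 to 305 CPM in C3 KO. The summed level of the type 1 list was 8929 to 9543 CPM in WT and 9293 to 9796 CPM in C3 KO, with overlap. Alveolar type 2 genes were higher in 10 of 14 (median 0.10) and airway secretory genes in 11 of 19 (median 0.18). The secretory median was -0.029 without the library labelled C3 KO 4 and -0.027 without WT 1. The type 1, type 2 and secretory lists had 0 genes passing in edgeR or DESeq2, with 4, 1 and 1 higher at an unadjusted p under 0.05.

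Genes of mammary epithelium and tumour cells were higher in 13 and lower in 13 of 26 tested members (median 0.01). The list includes general epithelial genes such as Epcam and Cdh1, and whether its level reports metastases was not tested. The summed level of this list was 1772 to 1943 CPM in WT and 1729 to 2162 CPM in C3 KO. Erbb3, a receptor of the ERBB family, was at 59.3 to 71.4 CPM in WT and at 72.6, 71.6, 82.1 and 104 CPM in C3 KO (0.30, SE 0.11, edgeR adjusted p = 0.379). Esr1, the oestrogen receptor, was at 2.99 to 3.49 CPM in WT and 2.28 to 2.84 CPM in C3 KO (-0.34, SE 0.14, edgeR adjusted p = 0.406). Proliferation genes were higher in 20 of 30 (median 0.06), with summed levels of 336 to 396 CPM in WT and 347 to 423 CPM in C3 KO. Genes of the metastatic niche and matrix remodelling were higher in 15 of 29 (median 0.04), with summed levels of 3118 to 3268 and 3136 to 3379 CPM. None of these 3 lists had a gene passing in edgeR or DESeq2, and at an unadjusted p under 0.05 they had 2, 0 and 1 higher and 2, 0 and 0 lower.

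**Figure D4:**
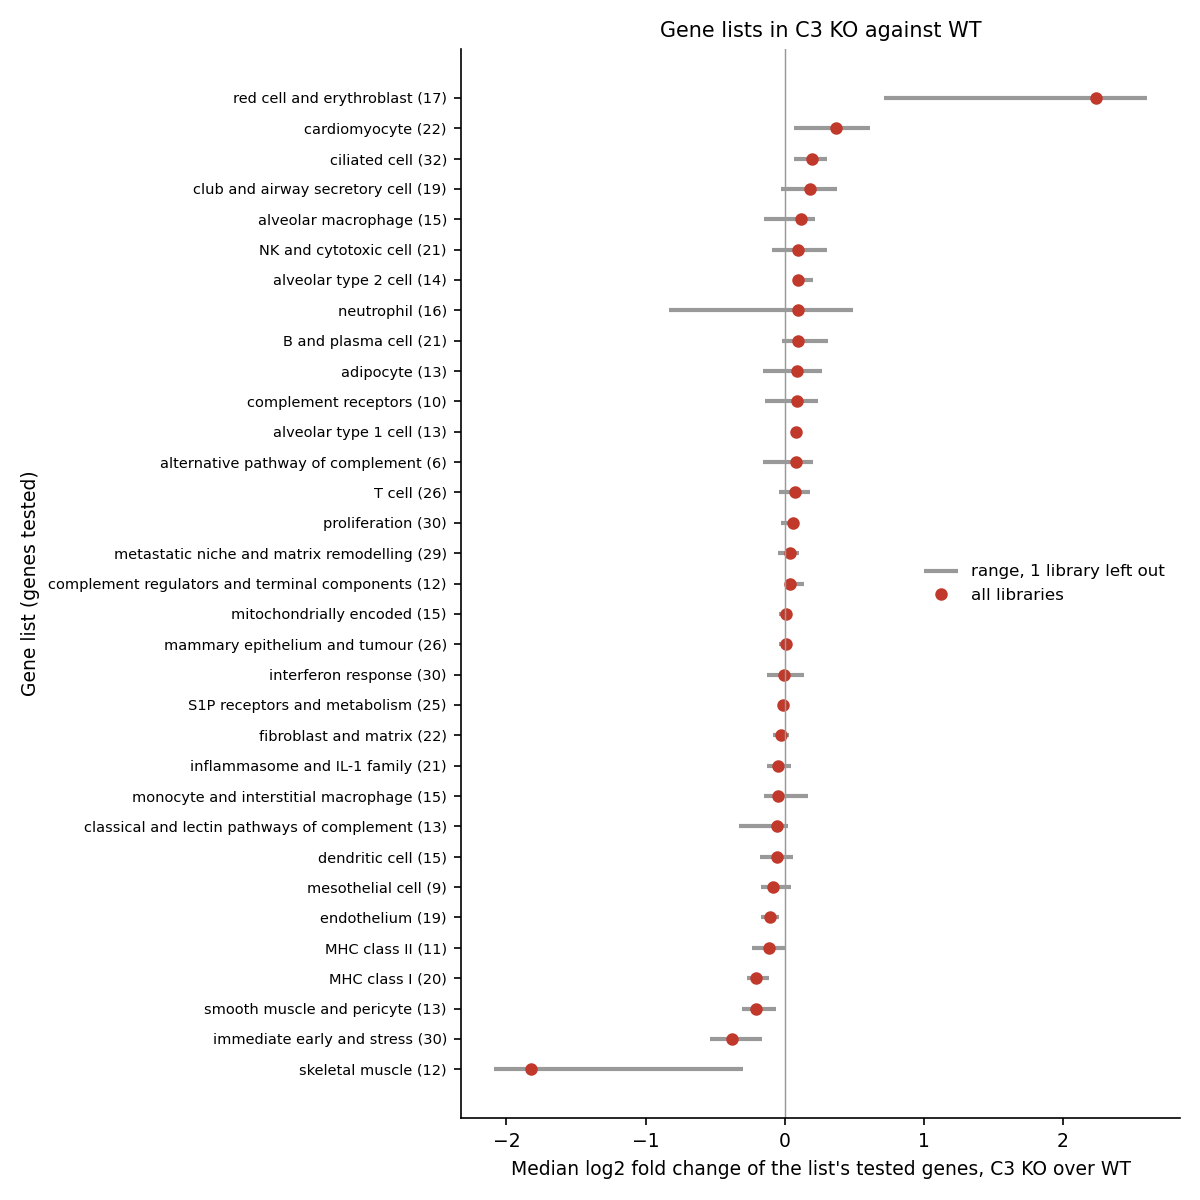
Median log2 fold change of C3 KO over WT (x axis) for the tested genes of each list (y axis, number of genes in parentheses), as points, with the range over fits that leave out each of the 8 libraries in turn as bars. The red cell (2.24) and skeletal muscle (-1.83) lists lie far from 0 and have the longest bars, and at 21 of the 33 lists the bar crosses 0.

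Fibroblast and matrix genes were higher in 11 of 22 (median -0.027), smooth muscle and pericyte genes in 2 of 13 (-0.21), mesothelial genes in 2 of 9 (-0.083) and adipocyte genes in 9 of 13 (0.09). When 1 of the 8 libraries was left out, these medians ran from -0.085 to 0.030, -0.30 to -0.065, -0.17 to 0.044 and -0.16 to 0.27 in that order. Of the inflammasome and IL-1 family, the sensors and cytokines of innate inflammation, 8 of 21 were higher (-0.047). None of these 5 lists had a gene passing in edgeR, and the fibroblast list alone had 1 in DESeq2, which was Eln. At an unadjusted p under 0.05 the fibroblast list had 2 higher and 2 lower, and the inflammasome list 1 lower.

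The lists that moved farthest did so largely through single libraries. All 17 tested red cell genes were higher (median 2.24), 11 of them at an unadjusted p under 0.05, with 0 passing in edgeR or DESeq2. Their summed level was 2799, 1370, 1029.9 and 1370 CPM in WT and 4581, 2750, 25309 and 1331 CPM in C3 KO, so C3 KO 3 lay far above the rest, and without it the median was 0.71. The beta globin gene Hbb-bt was at 270, 109, 83.7 and 97.1 CPM in WT and at 483, 212, 4556 and 133 CPM in C3 KO. Klf1, the erythroid transcription factor, was at 0.117 to 0.274 CPM in WT and at 0.549, 0.293, 1.25 and 0.589 CPM in C3 KO, the one red cell gene without overlap. Skeletal muscle genes were lower in 12 of 12 tested members (median -1.83), 5 of them at an unadjusted p under 0.05, with 0 passing in edgeR and 1 in DESeq2. Their summed level was 312 CPM in WT 2, 20.2 to 25.0 CPM in the other WT libraries and 17.0 to 24.2 CPM in C3 KO, and without WT 2 the median was -0.30. Cardiomyocyte genes were higher in 19 of 22 (median 0.37), with sums of 450, 1028, 850 and 1042 CPM in WT and of 759 to 1253 CPM in C3 KO. Without WT 1 that median was 0.07. Ryr2, the cardiac calcium release channel, was at 5.87, 16.2, 14.8 and 17.0 CPM in WT and at 14.9 to 32.3 CPM in C3 KO. How much neighbouring tissue or blood each sample held was not tested.

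Immediate early and stress genes, which respond to handling within minutes, were lower in 26 of 30 members (median -0.38, between -0.53 and -0.16 when any 1 of the 8 libraries was left out). None passed in edgeR or DESeq2, and 3 were lower and 1 higher at an unadjusted p under 0.05. Their summed level was 9689, 9606, 7294 and 5178 CPM in WT and 7720, 5531, 3432 and 8682 CPM in C3 KO. Klf2, a flow-responsive factor of endothelium, was at 628, 686, 493 and 368 CPM in WT and at 375, 243, 178 and 396 CPM in C3 KO, and Klf4 at 239 to 483 and 104 to 277 CPM. The libraries of both groups overlapped for both genes. The interferon response list had 15 of 30 higher (median -0.0057), yet Rsad2, an antiviral enzyme induced by interferon, was at 4.07 to 14.4 CPM in WT and at 13.6, 9.43, 100.4 and 3.66 CPM in C3 KO, high only in C3 KO 3.

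Summed levels of immune cell lists varied among the C3 KO libraries. The summed neutrophil level was 346 to 541 CPM in WT and 277, 397, 1464 and 70.4 CPM in C3 KO 1 to 4, which put C3 KO 3 above and the library labelled C3 KO 4 below all WT libraries. Retnlg, a neutrophil resistin-like gene, was at 13.1 to 21.9 CPM in WT and at 11.3, 18.9, 79.4 and 1.38 CPM in C3 KO, and Mmp9, a gelatinase of neutrophil granules, at 25.9 to 45.8 CPM and at 24.5, 43.9, 122 and 7.68 CPM. The median of the neutrophil list (0.10) became -0.83 without C3 KO 3 and 0.49 without the library labelled C3 KO 4. The summed alveolar macrophage level was 831 to 1091 CPM in WT, 799, 848 and 1018 CPM in C3 KO 1 to 3, and 2221 CPM in the library labelled C3 KO 4. Chil3, described below, is a member of this list and made up most of the sum in that library. Of that list 13 of 15 were higher (median 0.12), and the median was -0.15 without that library. T cell genes were higher in 19 of 26 (median 0.07), NK and cytotoxic genes in 13 of 21 (0.10), B and plasma cell genes in 16 of 21 (0.09) and dendritic cell genes in 6 of 15 (-0.05). When 1 of the 8 libraries was left out, those medians ran from -0.037 to 0.18 for T cells, -0.088 to 0.31 for NK cells, -0.020 to 0.31 for B cells and -0.17 to 0.059 for dendritic cells, so none of the 4 had a direction independent of single libraries. No immune list had a gene passing in edgeR or DESeq2. At an unadjusted p under 0.05, 1 dendritic cell gene was higher and 2 genes of monocytes and interstitial macrophages were lower.

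The library labelled C3 KO 4 also stood apart at single genes. They are members of the gene lists above, picked here for their levels in it, with no test behind the choice. Saa3, an acute phase protein of lung and macrophages, was at 1.76 to 1.96 CPM in WT, at 1.85, 2.46 and 3.33 CPM in C3 KO 1 to 3 and at 17.2 CPM there. Chil3, a chitinase-like protein of macrophages, was at 337 to 457 CPM in WT, at 250, 352 and 506 CPM in C3 KO 1 to 3 and at 1419 CPM there. Lcn2, an iron-scavenging protein, was at 63.6 to 99.0 CPM in WT, at 76.1, 99.9 and 106 CPM in C3 KO 1 to 3 and at 297 CPM there. Pigr, which carries IgA across epithelium, was at 162 CPM in that library against 44.1 to 54.4 CPM in C3 KO 1 to 3 and 30.0 to 46.3 CPM in WT. Foxp3, the transcription factor of regulatory T cells, was at 4.45 CPM there against 0.820 to 1.59 CPM in WT. Within C3 KO, Foxp3 was not among the genes flagged below for an outlying library. Ctla4, an inhibitory receptor of T cells, was at 8.60 against 0.761 to 2.29 CPM, and the chemokine gene Ccl22 at 30.9 against 6.30 to 9.64 CPM. The summed T cell list did not follow them: it was at 159 CPM there, 205 to 317 CPM in C3 KO 1 to 3 and 166 to 259 CPM in WT. None of these 7 genes passed in C3 KO against WT, the lowest edgeR adjusted p being 0.337 for Pigr.

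Leaving out the library labelled C3 KO 4 raised the count of genes that passed from 2 to 35 (0.170% of 20614 tested), 10 up and 25 down. Of the 35 genes, 15 were annotated as pseudogenes, 13 as protein coding and 6 as lncRNA, and 14 (40%) lay on chromosome 17 against 4.98% of the genes tested. Gm28438 and mt-Nd3 were the 2 that also passed with all libraries. On a scale where 0 is the mean of WT and 1 the mean of C3 KO 1 to 3, computed on log2(CPM + 0.05), the library left out lay nearer to WT at 30 of the 35 genes and within the range of the WT libraries at 18. It lay nearer to C3 KO 1 to 3 at Gm28438, mt-Nd3, Herc2, Gm44321 and Gm6659. All 4 S1pr1 KO libraries lay nearer to C3 KO 1 to 3 at 31 genes, 28 of which were among the 30, and none of the 4 did at C3. The 35 genes were chosen by these libraries, so their positions are a description.

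**Figure D5:**
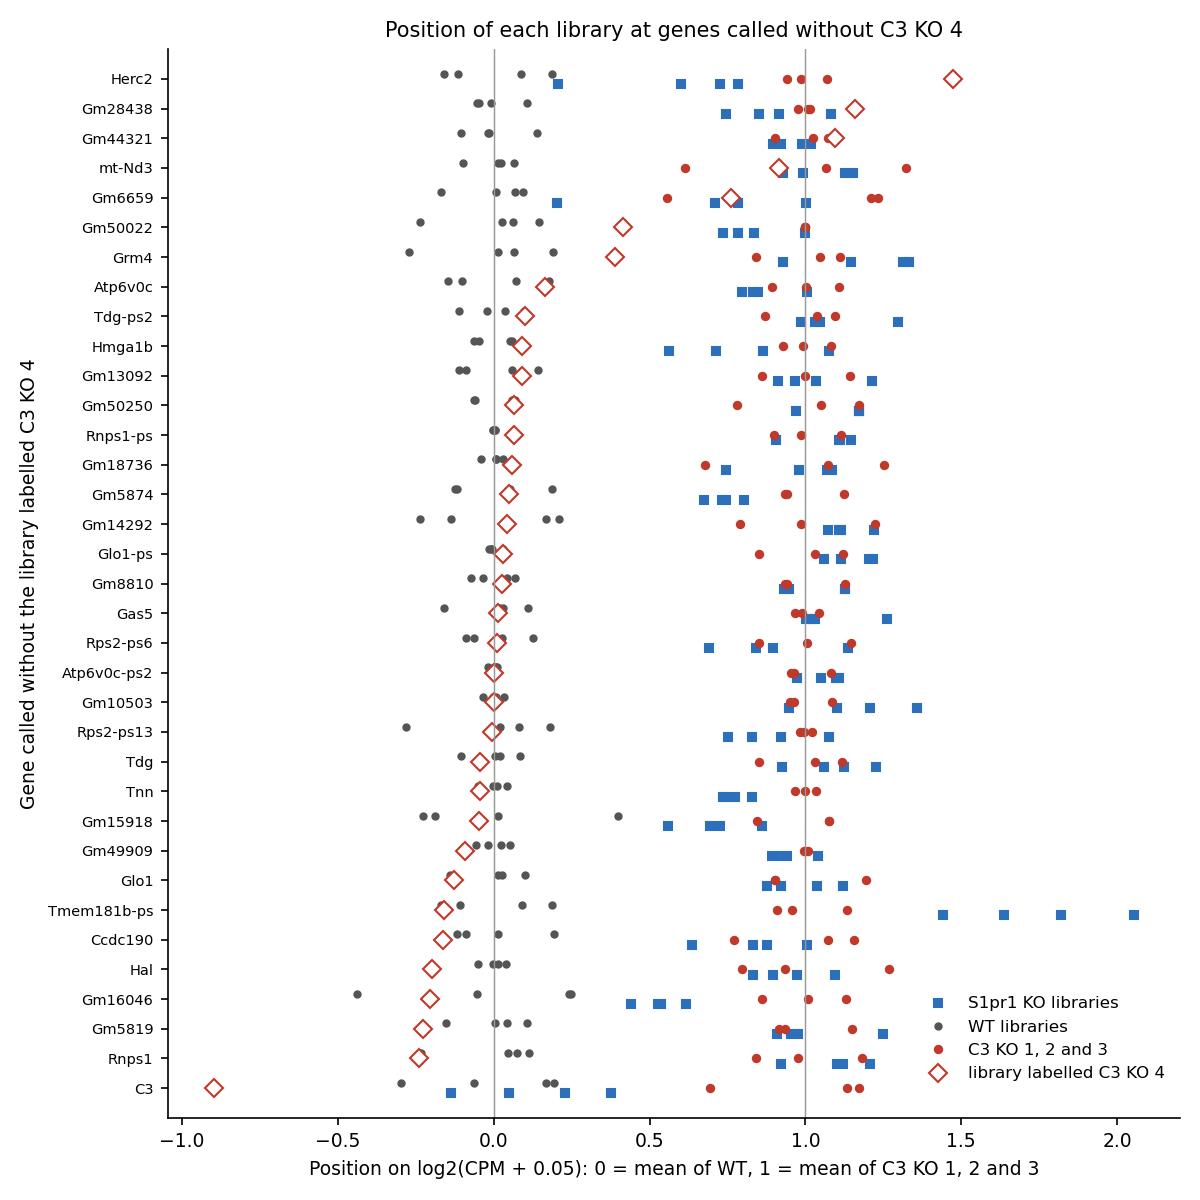
Position of each library (x axis, log2 scale with 0 at the WT mean and 1 at the mean of C3 KO 1, 2 and 3) at the 35 genes called without the library labelled C3 KO 4 (y axis, ordered by that library's position). Its open diamonds lie nearer to 0 than to 1 at 30 genes, and the S1pr1 KO squares lie near 1 at most.

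Some of these genes were high in WT and close to 0 in C3 KO 1 to 3. Atp6v0c-ps2, a processed pseudogene on chromosome 6, was at 35.4, 32.2, 32.9 and 31.6 CPM in WT, 32.7 CPM in the library labelled C3 KO 4, but at 0.578, 0.322 and 0.555 CPM in C3 KO 1 to 3 and at 0.284 to 0.531 CPM in S1pr1 KO. Its parent Atp6v0c on chromosome 17 encodes the proton-carrying ring subunit of the V-ATPase, and 465 of its bases match the pseudogene at all but 1. That base is in capitals in the following 60 bases, from the same GENCODE release.
Atp6v0c: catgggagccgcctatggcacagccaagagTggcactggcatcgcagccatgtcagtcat
Atp6v0c-ps2: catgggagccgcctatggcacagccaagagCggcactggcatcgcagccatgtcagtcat
The substitution was T288C, counted from 1 at the 5′ end of the Atp6v0c transcript. Atp6v0c was at 79.1 to 87.1 CPM in WT, 86.7 CPM in the library labelled C3 KO 4 and at 108 to 115 CPM in C3 KO 1 to 3, while the summed level of the pair was 111 to 122 CPM in WT and 108 to 115 CPM in C3 KO 1 to 3, with overlap.

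The splicing activator Rnps1, also on chromosome 17, formed a second such pair. Rnps1-ps (chromosome 6) was at 15.1 to 15.6 CPM in WT, 11.9 CPM in the library labelled C3 KO 4 and 0.146 to 0.405 CPM in C3 KO 1 to 3, the transcripts matched at 99.4% of 843 bases, and the sum was 58.8 to 63.4 CPM in WT and 61.2 to 68.1 CPM in C3 KO 1 to 3. For Tdg, a DNA glycosylase, and Tdg-ps2 (99.2% of 1194 bases) the sum did differ, 22.7 to 25.2 CPM in WT against 30.0 to 33.3 CPM in C3 KO 1 to 3. Glo1, the glyoxalase that detoxifies methylglyoxal, went the other way from the first 3 parents: it was at 67.3 to 74.0 CPM in WT and 73.6 CPM in the library labelled C3 KO 4, and at 44.0 to 49.3 CPM in C3 KO 1 to 3, with Glo1-ps at 4.03 to 4.63 CPM in WT and 0.117 to 0.318 CPM in C3 KO 1 to 3. Glo1 and Hmga1b (9.31 to 10.3 CPM in WT, 4.05 to 4.60 CPM in C3 KO 1 to 3 and 9.06 CPM in the library labelled C3 KO 4) were picked after their values were seen.

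Other genes showed the same arrangement. Tnn, which encodes the matrix protein tenascin-N, was at 31.2 to 36.1 CPM in WT, 35.8 CPM in the library labelled C3 KO 4 and 6.44 to 7.17 CPM in C3 KO 1 to 3. With all libraries Tnn did not pass (-1.24, edgeR adjusted p = 0.363), and it was named because the fit without that library called it. Hal, the histidine-degrading enzyme, was at 3.48 to 4.39 CPM in WT, 6.35 CPM in that library and 0.117 to 0.492 CPM in C3 KO 1 to 3. Gas5, a host of small nucleolar RNAs, was at 32.4 to 36.8 CPM in WT, 35.2 CPM in that library and 55.0 to 57.0 CPM in C3 KO 1 to 3. Grm4, a glutamate receptor, was at 0.576 to 0.966 CPM in WT, 1.20 CPM in that library and 1.97 to 2.63 CPM in C3 KO 1 to 3. Gm10503, a lncRNA of chromosome 17, was at 6.67 to 8.52 CPM in WT, 7.50 CPM in that library and 0.0868 to 0.176 CPM in C3 KO 1 to 3. The labels give no breeding background for single animals, and whether the samples differed in it was not tested.

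Near C3 the share of low p-values was lower than over all genes with all libraries, and higher without the library labelled C3 KO 4. Both shares rest on few genes, and neither difference from the share over all genes was tested. Within 10 Mb of C3, 12 of 149 tested genes (8.05%) had an unadjusted edgeR p under 0.05, against 11.0% of all genes and 13.1% on chromosome 17 as a whole. Of these 149, 1 was higher and 4 lower without overlap, and 0 passed in edgeR and 2 in DESeq2. Over the autosomes and X the share ran from 9.11% on chromosome 13 to 13.3% on chromosome 14. Without the library labelled C3 KO 4 the share near C3 was 21 of 153 genes (13.7%, and 13.2% with C3 itself left out), against 10.6% of all 20614 genes in that fit. The protein coding genes of lowest p in the window were Tspo2, a sterol-binding protein of erythroid cells, at 0 to 0.281 CPM in WT and at 1.53, 0.117, 7.91 and 0.154 CPM in C3 KO, and Guca1b, a regulator of guanylate cyclase, at 0.421 to 0.908 CPM in WT and 0.614 to 2.08 CPM in C3 KO. Others among them were Mtcl1, a microtubule crosslinker, at 119 to 144 CPM in WT and 148 to 161 CPM in C3 KO, and Safb2, a nuclear scaffold protein, at 188 to 204 and 159.9 to 188 CPM. Med20, a Mediator subunit, was at 26.4 to 33.1 CPM in WT and 23.9 to 25.0 CPM in C3 KO, without overlap. The edgeR adjusted p of these 5 genes was 0.325 or above.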

How the data were processed

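RNA-seq of whole lung was analysed from the table of read counts per gene that the authors deposited (56748 genes, whole numbers, 12 libraries). The authors also deposited FPKM values, used here only in alternatives. CASAVA, STAR and the builds GRCm39 and mm39 are named without versions, per the submitters' processing notes. How reads were counted, with which strand setting and gene annotation, is not given in those notes, and reads of near-identical or antisense genes may be misplaced. Coordinates, lengths and biotypes are those of the deposited table.

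Groups follow the genotype labels, and replicate numbers follow accession order and pair nothing. Counts were tested with edgeR 4.0.16 (R 4.3.3) after filterByExpr (20229 genes) and TMM scaling, by a quasi-likelihood fit (legacy = FALSE) with a mean per group over 12 libraries and Benjamini-Hochberg adjustment at 0.05. Levels are CPM on TMM-scaled totals, and SE is back-calculated from the F statistic. The script was tested on simulated data. Single values were tested by exact permutation. Alternatives were DESeq2 1.42.0, limma 3.58.1 (voom with quality weights, and log2(FPKM + 1) or log2(FPKM + 0.1)), other scalings and filters, a robust or legacy fit, the 8 libraries alone, and each library left out. A length trend removed per library, and DESeq2 without the library labelled C3 KO 4, were chosen after seeing the data.

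Named genes were C3, C3ar1, C5ar1, Cfb, C4b and S1pr1, all that passed, the 15 higher and 15 lower protein coding genes of lowest p without overlap and of at least 1 CPM, up to 4 members of lowest p of each list, genes called by both DESeq2 and voom, up to 8 protein coding genes within 10 Mb of C3, and up to 10 per direction called without the library labelled C3 KO 4. The text uses part of these, and some genes are not reported here. The comparison, gene lists and rules were chosen with earlier results of these data known.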

Additional observations from a re-analysis of the deposited data

Results flagged for a closer look

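In 262 groups of 4 libraries (each named gene or list score in WT or in C3 KO), 32 held 1 library so far from the other 3 that the gap passed Dixon's critical value at 95%. Chance flags about 1 in 20 groups, and the genes were in part chosen for such patterns. The ratio given for each is that gap divided by the range of the group.

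The library labelled C3 KO 4 stood apart within C3 KO at C3 (0.857), at Eef1g (0.897), where it was the lowest, and at Gm50022 (1), a lncRNA with no count in C3 KO 1 to 3. It was the highest of its group at Pigr (0.912), Saa3 (0.903), Lcn2 (0.866), Ctla4 (0.950) and Ccl22 (0.930), and in the mean log2 CPM of the dendritic cell list (0.894). At Atp6v0c-ps2 (0.992), Rnps1-ps (0.978), Glo1-ps (0.949), Tdg-ps2 (0.887), Tnn (0.975), Hal (0.940), Hmga1b (0.891) and Gm10503 (0.988) it was again the highest, and at Gas5 (0.906) the lowest. These 9 genes were among those called without it.

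C3 KO 3 was the highest of its group at the globin genes Hbb-bt (0.921), Hbb-bs (0.854) and Hba-a1 (0.850), at Rsad2 (0.897) and in the inflammasome list (0.860). C3 KO 2 was the lowest at Myh6 (0.905), the cardiac myosin heavy chain, with 192 CPM against 369 to 388 CPM. In WT, library 2 was the highest at Acta1 (0.978), the actin of skeletal muscle, with 98.6 CPM against 0.293 to 2.46 CPM, at Casq1 (0.905) and in the skeletal muscle list (0.838). WT 1 was the highest at Hbb-bt (0.863) and H2-T24 (0.909), WT 2 the lowest at Chil3 (0.947), WT 4 the lowest at Lcn2 (0.905), and WT 3 the lowest in the T cell list (0.858).

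The test of S1pr1 KO against C3 KO called 16 genes in edgeR, 2 of them (Eln and Rbm3) among the genes chosen by the naming rules. The log2 difference of S1pr1 KO minus C3 KO was -0.68 for Eln and 0.51 for Rbm3 (edgeR adjusted p = 0.043 for both, 4 libraries per group).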

How the results depend on the processing

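Of 20229 genes, 2 passed in edgeR with all 12 libraries. The count was 177 with DESeq2, 21 with voom and quality weights, 6 with limma on log2(FPKM + 1), 6 on log2(FPKM + 0.1) and 1 in a fit of the 8 libraries alone. It ran from 2 to 35 over fits that left out 1 library, with 35 only without the library labelled C3 KO 4 and at most 3 without any other. DESeq2 called 210 without that library. Other scalings, filters, a robust or legacy fit and the length trend gave 2 or 3. The share of low p-values within 10 Mb of C3 ran from 6.54% to 13.7% over fits leaving out 1 library.

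Of 95 named genes, 9 changed direction under an alternative, and none of these passed in any. With voom the values were -0.045 for Cfb, -0.049 for C5ar1, -0.12 for Chil3, -0.16 for Retnlg, -0.15 for Foxp3 and -0.30 for Ctla4. On log2(FPKM + 0.1) Retnlg was at -0.45 and Mmp9 at -0.042, and on log2(FPKM + 1) Retnlg was at -0.35. Over fits leaving out 1 library the ranges were -0.26 to 0.53 for Cfb, -0.32 to 0.13 for C4b, -0.20 to 0.20 for C5ar1 and -0.20 to 0.85 for Chil3. They were -0.74 to 1.07 for Retnlg, -0.41 to 0.92 for Mmp9, -0.24 to 0.84 for Foxp3, -0.79 to 1.29 for Ctla4 and -0.030 to 1.05 for Ccl22. The low ends of Cfb, C4b, Chil3, Foxp3, Ctla4 and Ccl22 came without the library labelled C3 KO 4, and those of C5ar1, Retnlg and Mmp9 without C3 KO 3. The cause of the differences between tools was not tested.

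Over 34 lists, 4 medians moved by more than the spread between libraries. They were -0.33 for the classical and lectin pathways without the library labelled C3 KO 4, 0.14 for complement regulators and terminal components without C3 KO 1, 0.71 for red cells without C3 KO 3 and -0.30 for skeletal muscle without WT 2. Of the 33 lists other than the sex-linked one, 21 medians changed sign in at least 1 fit that left out a library and 12 kept it. No paired analysis was possible because the labels give the groups no replicate numbers that pair them. Genes near 1 CPM rest on few reads per library, which limits their precision.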
